A study of Mus musculus with 3 samples.

Results

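A total of 42 genes that serve the folding, translocation and degradation of proteins in the endoplasmic reticulum (ER) were followed through single-cell RNA libraries of mouse spleen B cells. They were chosen by name from the 32285 gene features of the files and all 42 were found. By role they comprised 13 chaperones and chaperone partners, 7 disulfide bond genes, 8 degradation genes, 12 genes of translocation and signal peptide cleavage, and the 2 stress sensors Ern1 and Atf6. The cells came from female wild-type BXD2 mice, a recombinant inbred strain prone to lupus-like disease, with 3 mice per treatment. Every mouse was injected with R848, a TLR7 agonist, at 40 µg per 20 g of body weight. The IL-4+R848 mice had received 5 µg of recombinant IL-4 bound to 25 µg of anti-IL-4 antibody 2 hours before, and the R848 mice the antibody alone at 25 µg. Both injections were given again 2 days later and spleens were collected after a further 2 days. No group went without R848, so the R848 cells are a TLR7-stimulated control and not a resting one. The labels give no age.

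B cells were enriched by negative selection, marked with a hashtag antibody per treatment (Con_fb for R848, IL4tr_fb for IL-4+R848) and mixed into 3 libraries of 5′ transcript ends, called sets 1 to 3. The labels do not say which mice a set holds, so the spread between sets may be technical. For IL-4 effects the p-values measure the spread between sets. For classes and isotypes they measure how the difference varies over sets and treatments. Both treatments of a set share its library and were counted separately there. The sets held 11389 to 14519 barcodes and 96866964 to 107244246 gene UMIs (unique molecular identifiers, each standing for 1 captured transcript), with medians of 4957 to 6580 UMIs per barcode. A treatment was assigned to 35102 cells. Pairs of sets shared 219 to 289 barcode sequences, and barcodes were kept separate by set. Barcodes with both hashtags were 7.26% to 8.86% of a set and 13.3% to 13.7% of those inside the plasmablast gate, and were removed. Droplets with several cells of 1 treatment cannot be seen this way.

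An antibody-secreting cell sends a large part of its protein synthesis through the ER. Signal recognition and the Sec61 channel admit the new chain, signal peptidase trims it, the Hsp70 chaperone BiP and its partners hold it, disulfide isomerases pair its cysteines, and chains that fail are drawn back to the cytosol for the proteasome. The unfolded protein response, with the sensors IRE1 (Ern1) and ATF6 and the factor XBP1, raises many of these genes, and XBP1 is needed for the secretory machinery of plasma cells. Naive B cells carry little of it.

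Cells were sorted by RNA gates. Plasmablasts needed at least 5 Edem1 and 20 Mzb1 UMIs, 2 of the 42 genes, so both are only described in every comparison that involves plasmablasts and 40 members were tested there. The gate took 2577 cells (150 to 795 per set and treatment, 3.28% to 10.6% of assigned cells). By dominant heavy chain they were 958 IgM, 289 IgG1, 1132 IgG2b/IgG2c, 123 IgG3 and 73 IgA cells. Germinal center-like cells (1724) held at least 3 of 8 germinal center transcripts, memory-like cells (603) held Zbtb32 with at least 2 of 9 memory-state transcripts and no Mki67 or Top2a, and naive-like cells (8373) held at least 2 Ighd UMIs and no sign of activation or division. Cells inside the plasmablast gate were left out of these 3 classes, so no cell in them could be high in both Edem1 and Mzb1. UMIs were summed per set, treatment and class, which gave 6 sums per class. A level below is a gene's UMIs per 1000000 UMIs of genes other than immunoglobulin genes. Because 5′ counting gives 1 UMI per transcript end, levels do not scale with transcript length.

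The plasmablast gate was checked on markers it did not use. All 7 (Jchain, Tnfrsf17, Prdm1, Xbp1, Sdc1, Slamf7 and Irf4) were higher than in naive-like cells, with Jchain, the joining chain of polymeric antibody, at a mean level of 29388 against 51.8, and Xbp1 at 2918 ± 219 against 74.0 ± 18.5 (SD, n = 6 sums each). T cell and macrophage markers made up at most 0.002% of plasmablast UMIs and erythroid and neutrophil markers 0.000%. Plasmablasts were deeper than the rest, with medians of 18738 to 22228.5 UMIs per cell against 4440 to 7584 in naive-like cells. They also divided more (55.1% to 67.3% held an Mki67 or Top2a UMI, against none of the naive-like cells by definition). Levels are shares of UMIs, and the part of depth or division in what follows was not tested. With non-dividing plasmablasts alone 40 of 40 members were called as well, but the share of all genes called in that fit is not given.

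Plasmablasts were set against naive-like cells of the same set and treatment. All 40 tested members rose, in every role. Together the 42 genes took 6.92% of plasmablast UMIs outside immunoglobulin genes (6.53% to 7.32% over 6 sums) and 0.494% in naive-like cells (0.468% to 0.555%), or 5.58% (5.29% to 5.90%) in plasmablasts without Edem1 and Mzb1. In UMIs per cell this was 835 to 1049 in plasmablasts and 25.1 to 37.3 in naive-like cells. The median rise was 3.54 on the log2 scale, against -0.04 over all 10490 genes tested. The test was edgeR's quasi-likelihood test with the set and treatment as a block, and a gene was called when its Benjamini-Hochberg adjusted p was below 0.05. By that rule 39.1% of all genes rose and 41.2% fell, and 80.3% were called either way, so a call alone says little here. Size separates the members more: 27 of 40 (67.5%) had a log2 fold change of 3 or more, as did 663 of all genes tested (6.32%). The levels of all 42 genes in the 6 plasmablast sums lay above those of the 6 naive-like sums, which for Edem1 and Mzb1 the gate itself brings about. How many of all genes were as clearly apart was not counted, so this does not set the members apart from other genes.

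**Figure D1:**
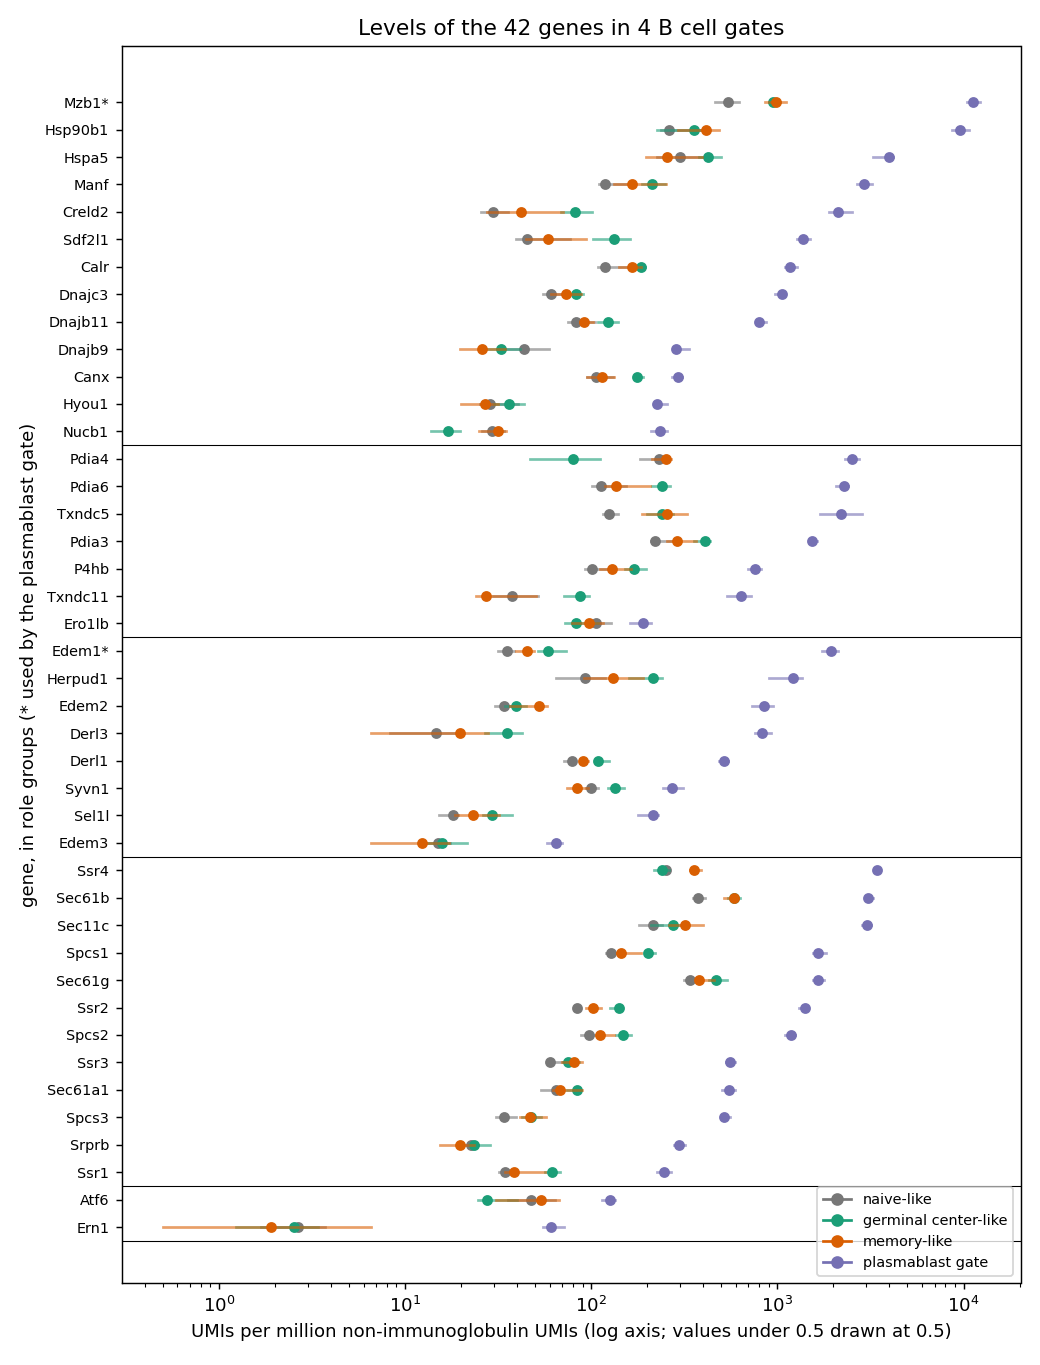
Levels of the 42 genes by role in naive-like, memory-like and germinal center-like cells and plasmablasts, in UMIs per 1000000 non-immunoglobulin UMIs on a log axis. Points are medians over 6 sums (3 sets by 2 treatments) and lines run from the lowest to the highest sum. Edem1 and Mzb1, marked with a star, made the plasmablast gate. The plasmablast points of every gene lie above its naive-like points, by a fitted 69.2-fold for Creld2 and 1.69-fold for Ero1lb. The other classes lie on both sides of the naive-like points. Fitted log2 fold changes run from -1.75 (Pdia4) to 1.27 (Creld2) in germinal center-like cells. In memory-like cells they run from -0.73 (Dnajb9) to 1.00 (Txndc5).

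Among chaperones the rise was led by Creld2, Hsp90b1 and Sdf2l1. Creld2, a lumenal protein strongly induced by ER stress, ranged from 1893 to 2513 in plasmablasts (median 2116) and from 25.7 to 35.6 in naive-like cells (median 29.7), a rise of 6.11 ± 0.08 (log2 fold change ± SE, 69.2-fold). Hsp90b1, the ER Hsp90 that folds Toll-like receptors and integrins, ranged from 8662 to 10656 (median 9604) against 236 to 388 (median 262), or 5.09 ± 0.09. Sdf2l1, a partner of the BiP cochaperone ERdj3, ranged from 1269 to 1495 (median 1372) against 39.2 to 76.6 (median 45.0), or 4.81 ± 0.12. The groups were far apart for these 3 genes. Hspa5, which encodes BiP itself, rose less, from a higher naive-like level: it stood at 3829 ± 367 in plasmablasts and 306 ± 67.0 in naive-like cells (SD, n = 6; 3.64 ± 0.12). Manf, which binds BiP, rose by 4.53 ± 0.07 and Dnajc3, a J-domain partner of BiP, by 4.06 ± 0.07. The lectin chaperones of glycoproteins differed from each other, with Calr at 3.20 ± 0.09 and its membrane-bound relative Canx at 1.42 ± 0.06, the lowest of the chaperones. Mzb1, a chaperone partner of B and plasma cells that aids antibody assembly, was the most abundant member, at 10485 to 12212 (median 11301) against 465 to 620 (median 544), and as a gate gene carries no test here.

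Disulfide bond genes rose by a median of 3.48. Pdia6 ranged from 2073 to 2395 in plasmablasts (median 2290) and from 101 to 154 in naive-like cells (median 113), a rise of 4.23 ± 0.09. Txndc5, an ER protein with thioredoxin domains, ranged from 1694 to 2835 (median 2209) against 116 to 140 (median 125), or 4.09 ± 0.12. Its spread among plasmablast sums was the widest of the abundant disulfide genes, and it is taken up again by isotype. Txndc11, a reductase that works with the EDEM proteins in degradation, rose by 3.99 ± 0.11. Pdia4 was the most abundant of the group, at 2525 ± 153 against 223 ± 22.9 (3.48 ± 0.09). Ero1lb, an oxidase that recharges protein disulfide isomerase, had the smallest rise of all 40 members: 162 to 210 in plasmablasts (median 189) and 95.2 to 128 in naive-like cells (median 106), or 0.76 ± 0.07 (adjusted p = 1.2e-05), with groups that still did not overlap.

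Degradation genes spread from 1.45 to 5.92. Derl3, a derlin of the channel that draws failed proteins back to the cytosol, ranged from 759 to 927 in plasmablasts (median 827) and from 8.26 to 20.4 in naive-like cells (median 14.7), a rise of 5.92 ± 0.23 (60.7-fold), whereas its relative Derl1 rose by 2.69 ± 0.08. The mannose-trimming EDEM genes parted too, with Edem2 at 4.60 ± 0.08 and Edem3 at 2.09 ± 0.05. Edem1, the other gate gene, was at 1743 to 2117 (median 1952) against 31.7 to 38.7 (median 35.5). Herpud1, which organises the degradation complex, rose by 3.69 ± 0.14. Of the ubiquitin ligase core, the adaptor Sel1l rose by 3.55 ± 0.07 and the ligase Syvn1 (HRD1) by 1.45 ± 0.06, from 99.8 ± 6.17 to 277 ± 23.8 (SD, n = 6). The difference between these rises was not itself tested.

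The 12 translocation genes moved most evenly, with 11 of them between 2.83 and 4.03 and Sec61g at 2.23 ± 0.06. Ssr2 of the translocon-associated complex rose by 4.03 ± 0.07, and the signal peptidase subunits Spcs3 and Sec11c by 3.89 ± 0.07 and 3.81 ± 0.06. Ssr4 was the most abundant, at 3436 ± 93.2 against 253 ± 7.71 (SD, n = 6; 3.74 ± 0.07). The channel subunits Sec61a1 and Sec61b rose by 3.09 ± 0.07 and 3.01 ± 0.08, and Srprb, the membrane anchor of the signal recognition particle receptor, by 3.69 ± 0.07. Both sensors rose, from low levels: Ern1 from 1.68 to 3.73 (median 2.67) in naive-like cells to 55.3 to 71.4 (median 60.7) in plasmablasts (4.55 ± 0.14), and Atf6 from 48.9 ± 11.4 to 126 ± 9.07 (1.36 ± 0.10). The largest adjusted p among the 40 members was 1.2e-05.

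Edem1 and Mzb1 were tested with plasmablasts gated without them, although cells inside the main gate stayed out of the naive-like class. A plasmablast gate with no member in it used at least 20 Jchain and 10 Xbp1 UMIs with Prdm1, Sdc1 or Tnfrsf17. It gave Edem1 a rise of 5.81 ± 0.09 and Mzb1 a rise of 4.39 ± 0.12 (edgeR adjusted p = 1.22e-09 and 5.22e-09). Under it 40 of 40 others were called, and the share of all genes called is not given. At the edge of the main gate, cells with 3 or 4 Edem1 UMIs, just outside, had Hspa5 at 856 to 1598 and Derl3 at 175 to 383 by set. Cells with 5 or 6 Edem1 UMIs, just inside, had 1830 to 2199 and 391 to 471. The ranges by set did not overlap for either gene. For Jchain, Xbp1 and Sec11c they did overlap, with Jchain at 5232 to 11926 just outside and 9595 to 17279 just inside. The bands were cut on Edem1, itself a gate gene.

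In droplet data free RNA can give UMIs to cells that do not express a gene, and the NK-like cells left after selection (145) served as a background. A Derl3 UMI was present in 0.690% of NK-like cells (1 of 145), 5.80% of naive-like, 10.8% of memory-like and 25.2% of germinal center-like cells and 96.4% of plasmablasts. For Mzb1 the shares were 8.97% of NK-like and 87.2% of naive-like cells. An Ern1 UMI was present in 19.3% of NK-like and 1.49% of naive-like cells. The NK-like share was also the higher one for other members, among them Hspa5, Hsp90b1, Dnajc3, Sdf2l1, P4hb and Nucb1. NK-like cells are no background for such genes. Median depth by sum was 5795 to 10870 UMIs in NK-like cells and 4440 to 7584 in naive-like cells. For Derl3 and Mzb1 the naive-like shares lay above the NK-like ones.

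In the GRCm38 annotation (GENCODE), the members the results turn on most lie as follows, all protein-coding: Creld2 (ENSMUSG00000023272; chromosome 15, 88819646 to 88826683, plus strand), Derl3 (ENSMUSG00000009092; chromosome 10, 75893413 to 75895941, plus strand), Txndc5 (ENSMUSG00000038991; chromosome 13, 38500079 to 38528824, minus strand), Pdia4 (ENSMUSG00000025823; chromosome 6, 47796141 to 47813430, minus strand).

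Other genes of the pathway went the same way. Of folding and glycan genes 25 of 25 tested rose, led by the proline isomerases and peroxiredoxin Fkbp11 (5.67), Prdx4 (5.28) and Fkbp2 (4.14). Of further targeting and degradation genes 22 of 22 rose, led by Selenos (3.27), Ube2j1 (3.24) and Erlec1. Of ER to Golgi transport genes 18 of 18 rose, with Kdelr3, a receptor that returns ER proteins, at 7.40, the coat subunit Sec24d at 5.94 and the cargo receptor Lman1 at 5.23. Regulators and outputs of the unfolded protein response split: 10 of 14 rose, among them Bhlha15 (7.36), Asns (6.55) and Chac1 (6.25), and Mbtps2, a protease that cuts ATF6, fell by 0.50. Ddit3, the stress factor CHOP, did not pass (0.32, edgeR adjusted p = 0.0586). The medians of the 4 lists were 2.43, 1.88, 2.48 and 2.21, each below the 3.54 of the 40 members.

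Sequence around the gene starts was read for members that rose together. The ER stress response element, CCAAT and CCACG with any 9 bases between them and known to be bound by ATF6 with the factor NF-Y, was searched on both strands from 250 bases before to 50 after the start of each gene in RefSeq (GRCm38.p6). Of the 42 members 32 had an entry, and 9 of them (28.1%) held the element: Hspa5, Hsp90b1, Calr, Canx, Dnajc3, Creld2, Pdia6, Derl3 and Syvn1. Over all RefSeq genes of the table it was found in 37 of 27025 (0.137%). The shorter form, ATTGG and CCACG with any 1 base between them, stood before Dnajb11, Nucb1 and Herpud1 (12 of all genes, 0.0444%), and the UPRE core, which XBP1 can bind, before Txndc5 and Txndc11 (193 of all genes, 0.714%). The last 5 letters of the element alone, CCACG, were in 28 of the 32 members (87.5%) and 35.5% of all genes, and every match to the longer forms includes them. These are matches of letters, not measured binding. The 250 bases before the start are shown for Creld2 and Derl3, the 2 tested members with the steepest rise, with the CCAAT and CCACG ends of the element in capitals (on the opposite strand they read ATTGG and CGTGG).
Creld2 (chr15:88819396-88819645, plus strand): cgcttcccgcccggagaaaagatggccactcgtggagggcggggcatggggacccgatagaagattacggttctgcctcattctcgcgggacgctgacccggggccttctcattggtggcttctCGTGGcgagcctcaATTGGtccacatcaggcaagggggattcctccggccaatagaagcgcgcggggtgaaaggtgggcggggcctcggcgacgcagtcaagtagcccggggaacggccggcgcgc
Derl3 (chr10:75893148-75893397, plus strand): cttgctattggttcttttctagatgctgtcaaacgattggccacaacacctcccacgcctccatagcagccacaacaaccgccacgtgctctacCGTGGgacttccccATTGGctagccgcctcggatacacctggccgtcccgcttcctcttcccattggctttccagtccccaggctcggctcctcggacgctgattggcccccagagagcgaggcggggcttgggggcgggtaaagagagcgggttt

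The elements of the other 7 genes, with 5 bases on each side, show how the fixed ends recur around unlike middles, and that Hsp90b1 carries it in 2 copies. Capitals again mark the fixed ends. The Hspa5 element lies inside an annotated exon of a protein-coding Hspa5 transcript in GENCODE, and so within a transcript by that annotation although before the RefSeq start.
Hspa5 (chr2:34772020-34772048, plus strand): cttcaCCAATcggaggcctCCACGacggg
Hsp90b1, far copy (chr10:86705633-86705661, minus strand): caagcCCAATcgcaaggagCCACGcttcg
Hsp90b1, near copy (chr10:86705528-86705556, minus strand): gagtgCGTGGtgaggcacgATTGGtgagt
Calr (chr8:84847070-84847098, minus strand): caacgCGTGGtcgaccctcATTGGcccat
Canx (chr11:50325795-50325823, minus strand): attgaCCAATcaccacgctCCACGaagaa
Dnajc3 (chr14:118937822-118937850, plus strand): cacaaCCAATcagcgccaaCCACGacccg
Pdia6 (chr12:17266486-17266514, plus strand): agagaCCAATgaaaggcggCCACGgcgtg
Syvn1 (chr19:6046527-6046555, plus strand): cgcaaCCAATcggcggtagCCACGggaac

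The element did not mark the steepest genes alone. The 9 members with it had rises of 1.42 (Canx) to 6.11 (Creld2) with a median of 4.06, and the 22 other matched and tested members had rises of 2.09 to 4.81 with a median of 3.50. Canx and Syvn1, among the 4 smallest rises of all 40 members, both carry it. Ero1lb (0.76) and Atf6 (1.36), with the smallest rises of all, had no entry and were not searched. This is a description of 31 genes and was not tested.

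Germinal center-like cells were set against naive-like cells next. Most members rose slightly and a few fell: 28 rose, 6 fell and 8 of 42 did not pass (36% of all 10417 genes rose, 38.9% fell and 74.8% were called either way). The median was 0.33, against -0.05 over all genes. Fold changes here rest on TMM scaling and differ from the ratios of the mean levels by -0.19 (log2, median over the members), so rises are larger and falls smaller in the levels. Together the members took 0.713% of UMIs (0.666% to 0.738%), against 0.494% in naive-like cells. By role, 9 of 13 chaperones, 5 of 7 disulfide genes, 6 of 8 degradation genes and 8 of 12 translocation genes rose. The 8 that did not pass were Hsp90b1, Hyou1, Edem2, Edem3, Ssr3, Sec11c, Srprb and Ern1. Germinal center-like cells divided most (79.96% to 86.6% held an Mki67 or Top2a UMI), and the part of division in these differences was not tested.

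The members that rose most in germinal center-like cells included several of the steepest in plasmablasts. Creld2 ranged from 69.1 to 102 (median 81.9) against 25.7 to 35.6 in naive-like cells, a rise of 1.27 ± 0.08. Sdf2l1 ranged from 102 to 163 (median 133) against 39.2 to 76.6 (1.24 ± 0.10). Both stood clear of the naive-like sums. Derl3 rose by 1.07 ± 0.19, from 8.26 to 20.4 up to 26.9 to 42.5, and Herpud1 by 1.01 ± 0.08. Among disulfide genes Txndc11 rose by 0.94 ± 0.11, Pdia6 by 0.83 ± 0.07 and Txndc5 by 0.75 ± 0.09. Ssr1, Ssr2 and Spcs1 led the translocation genes at 0.67 ± 0.06, 0.56 ± 0.05 and 0.45 ± 0.05, and Sec61b, the most abundant of them, went from 378 ± 20.0 to 584 ± 37.9 (SD, n = 6; 0.44 ± 0.05). Mzb1 stood at 956 ± 48.2 against 545 ± 63.6 (0.63 ± 0.07). Plasma cell markers moved as well: of 6 tested 4 rose, Jchain (4.61), Prdm1 (3.27), Slamf7 (1.67) and Xbp1 (1.32), and 2 fell, Sdc1 (-1.79) and Irf4 (-1.42). A Jchain UMI was present in 89.4% of germinal center-like cells and 19.8% of naive-like cells. The naive-like share lay near the 19.3% of the NK-like cells that served as background. The part of these markers in the members' rise was not tested.

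Pdia4 and Nucb1 went the other way. Pdia4, the isomerase ERp72, ranged from 46.8 to 112 in germinal center-like cells (median 79.8) and from 183 to 242 in naive-like cells (median 232), a fold change of -1.75 ± 0.11 (edgeR adjusted p = 2.33e-07), although plasmablasts held more of it than either. Nucb1, a calcium-binding protein of the Golgi and ER, ranged from 13.7 to 19.7 (median 17.0) against 25.9 to 34.2 (median 29.3), or -1.04 ± 0.10. Neither gene overlapped between the groups. Atf6 (-0.88 ± 0.13, edgeR adjusted p = 9.96e-05), Dnajb9 (-0.55 ± 0.07) and Ero1lb (-0.50 ± 0.09) also fell, but their sums overlapped with those of naive-like cells, and Atf6 was lower in 5 of 6 pairs of sums. Ssr4 fell by 0.26 on the log2 scale (edgeR adjusted p = 0.000392) at 219 to 261 against 241 to 263, where the ratio of mean levels was -0.07 on the log2 scale. With a gate of at least 2 of 8 germinal center genes this call was lost (-0.03, edgeR adjusted p = 0.707). Hspa5 and Sec61a1, which rose by 0.30 and 0.18, missed the threshold without set 2 (edgeR adjusted p = 0.0610 and 0.0553), and Sec61a1 also without set 1 (0.0626). Ern1 was at 1.24 to 3.42 (-0.36 ± 0.21, edgeR adjusted p = 0.138).

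**Figure D2:**
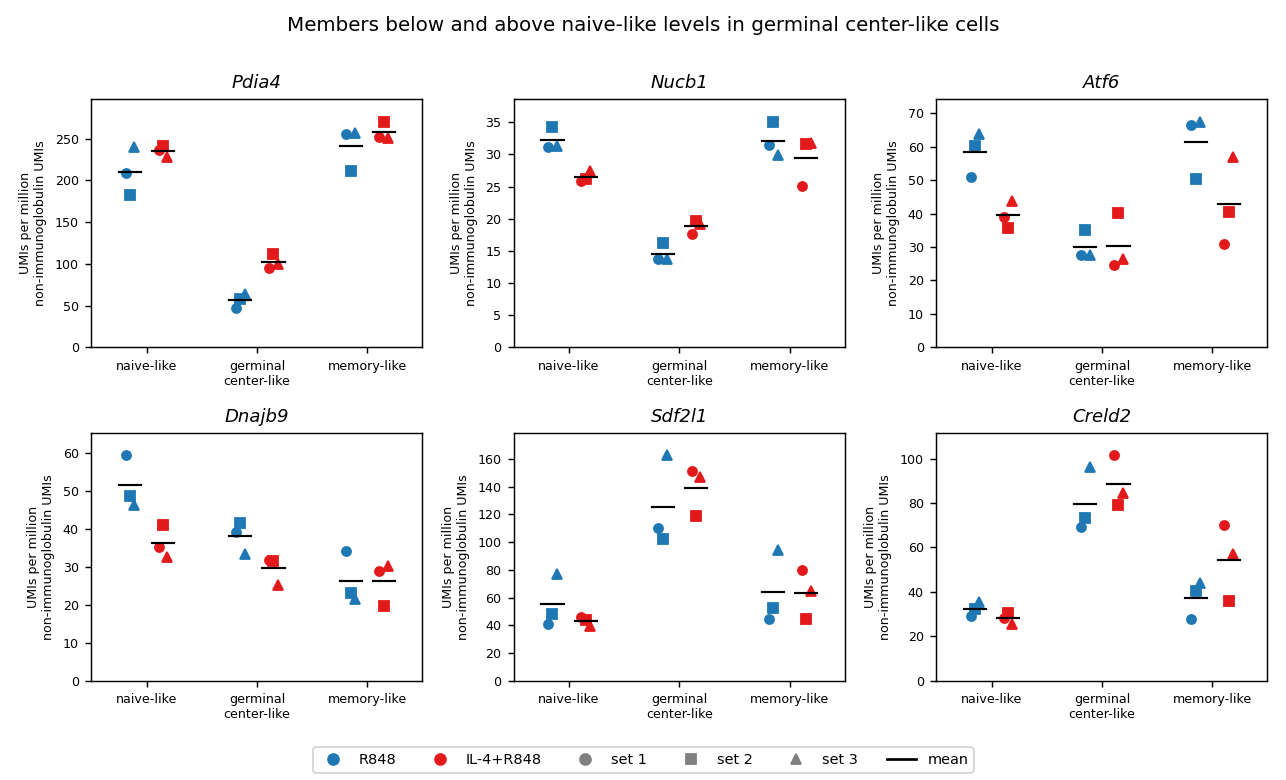
Levels of 6 members in naive-like, germinal center-like and memory-like cells, in UMIs per 1000000 non-immunoglobulin UMIs from 0. Each point is 1 sum (circle, square and triangle for sets 1, 2 and 3; blue for R848, red for IL-4+R848) and bars are means of 3 sums. Pdia4 and Nucb1 drop in germinal center-like cells and Sdf2l1 and Creld2 rise, and within germinal center-like cells Pdia4 is higher with IL-4+R848 (95.5 to 112) than with R848 (46.8 to 64.2).

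Among the other pathway genes, germinal center-like cells had 11 up and 9 down of 25 folding and glycan genes, with Prdx4 at 1.94 and Fkbp11 at -1.48. There were 10 up and 6 down of 22 targeting and degradation genes, 10 and 5 of 17 transport genes (Sec24d 1.47), and 5 and 3 of 12 regulators. In the last list Asns, an amino acid synthesis gene, rose by 5.15 and Xbp1 by 1.32, and Ppp1r15a, a phosphatase subunit of the stress response, fell by 1.31. Genes of each list moved both ways, as did all 10417 genes tested, of which 36% rose and 38.9% fell. In plasmablasts only the regulators moved both ways.

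Memory-like cells were compared with naive-like cells as well. Of 41 tested members (Ern1 did not pass the filter on low counts) 26 rose, 2 fell and 13 did not pass, where 14.6% of all 9440 genes rose, 10.1% fell and 24.7% were called either way. The median was 0.31, against -0.01 over all genes, and the members' total was 0.649% of UMIs (0.580% to 0.721%). By role 7 of 13 chaperones, 5 of 7 disulfide genes, 5 of 8 degradation genes and 9 of 12 translocation genes rose. Txndc5 rose most, ranging from 189 to 326 (median 257) against 116 to 140 (median 125), or 1.00 ± 0.13. Mzb1 ranged from 857 to 1112 (median 982) against 465 to 620 (0.86 ± 0.09), with no overlap in either gene. Sec11c and Sec61b each rose by 0.62 ± 0.07 and 0.62 ± 0.06. Edem2 rose by 0.59 ± 0.09, Herpud1 by 0.57 ± 0.11, Ssr4 by 0.52 ± 0.06 and Hsp90b1 by 0.52 ± 0.10.

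Dnajb9, the J-domain protein ERdj4 that represses IRE1, fell in memory-like cells as it did in germinal center-like cells: it ranged from 19.7 to 34.3 (median 26.0) against 32.7 to 59.4 (median 43.7), or -0.73 ± 0.14 (edgeR adjusted p = 0.00207), and the ranges overlapped. Syvn1 fell by 0.23 on the log2 scale (edgeR adjusted p = 0.0443). Pdia4, low in germinal center-like cells, was at 211.9 to 270.2 against 183 to 242 (0.18 ± 0.06, edgeR adjusted p = 0.0495). This call was kept in 3 of 11 alternatives: it was lost without each set in turn (adjusted p = 0.153, 0.219 and 0.173) and with no block (0.246), and the value turned to -0.24 in switched cells (edgeR adjusted p = 0.153). Atf6 did not pass (0.10 ± 0.11, edgeR adjusted p = 0.593). The count is less firm here than in the other classes: 16, 19 and 14 members were called without sets 1, 2 and 3, and 14 among switched cells only. Txndc5, Mzb1, Sec11c, Sec61b, Edem2, Herpud1, Ssr4, Hsp90b1, Manf and Dnajb9 were called in all 11 alternatives. Of other pathway genes 10 of 25, 7 of 22, 5 of 17 and 2 of 10 rose in the 4 lists, and 1 regulator fell.

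Plasmablasts of different isotypes were compared with IgM plasmablasts of the same set and treatment. Without the gate genes Edem1 and Mzb1 the members took 5.40% of UMIs in IgM cells (5.04% to 5.83% over 6 sums), 5.66% in IgG2b/IgG2c cells (5.22% to 5.9997%), 5.84% in IgG1 cells (5.07% to 6.90%), 5.74% in IgG3 cells (4.98% to 6.74%) and 6.24% in IgA cells (5.05% to 7.42%), the last 3 with sums of under 20 cells included. The ranges overlapped in every pair. Single members differed, and Txndc5 more than any other. It ranged from 2530 to 3971 in the 6 IgM sums (median 3491). It was at 1117 to 1500 in R848 and 1357 and 1086 in IL-4+R848 sums of IgG1 cells, where set 2 of IL-4+R848 held too few cells (10). It ranged from 1151 to 1728 in the 6 IgG2b/IgG2c sums. Every IgG sum of at least 20 cells lay below every IgM sum. The log2 fold change was -1.50 ± 0.11 for IgG1 and -1.26 ± 0.10 for IgG2b/IgG2c (edgeR adjusted p = 4.24e-06 and 5.54e-06). It was -1.54 ± 0.17 for IgG3, with 2 sums at 1419 and 1032 (edgeR adjusted p = 0.000375). Without set 1 a single IgG3 sum is left, assumed to vary like the other sums, and the value was -1.63 (edgeR adjusted p = 0.146). The 6 IgA sums of 9 to 16 cells were too small to test and held 3080 to 6387.

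Ero1lb, the oxidase with the smallest rise in plasmablasts, followed the same order. It was at 217 to 279 in IgM sums, 128 to 156 in IgG1 sums and 139 to 173 in IgG2b/IgG2c sums, and fell by 0.70 ± 0.09 and 0.63 ± 0.08 on the log2 scale (edgeR adjusted p = 0.00023 and 0.00017). In non-dividing cells the IgG1 call was lost (-0.33, edgeR adjusted p = 0.239). Neither IgG group overlapped with IgM. Txndc11 was the disulfide gene that went the other way, at 438 to 586 in IgM sums and 618 to 802 in IgG1 sums, which rose by 0.46 ± 0.10 (adjusted p = 0.0058). It was at 600 to 819 in IgG2b/IgG2c sums (0.37 ± 0.09) and at 939 and 1016 in the 2 IgG3 sums (0.83 ± 0.13, adjusted p = 0.00435).

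In all, 5 members rose and 2 fell in IgG1 cells (7.95% and 7.73% of all 8776 genes, 15.7% either way). In IgG2b/IgG2c cells 4 rose and 4 fell (9.29% and 10.1%, 19.4% either way), and in IgG3 cells 3 rose and 1 fell (2.3% and 1.53%, 3.83% either way). For IgG1 and IgG2b/IgG2c cells the members' shares called either way were close to this background. With immunoglobulin genes left out of the fit 14 rose and 3 fell in IgG1 cells, 7 and 8 in IgG2b/IgG2c cells, and 10 and 1 in IgG3 cells. The matching shares of all genes are not given for this fit or for the other gates below. These counts therefore show only how the calls shift and are no trait of the members. The balance in IgG1 cells turned with the gate: 1 rose and 4 fell under the plasmablast gate without members (Hsp90b1 rose, and Edem3, Canx, Ero1lb and Txndc5 fell), and 2 rose and 3 fell under the stricter Edem1 and Mzb1 gate. In IgG1 cells the rises were of Creld2 (0.54 ± 0.16), Hsp90b1 (0.54 ± 0.12), Hspa5 (0.48 ± 0.14), Txndc11 and Derl1 (0.32 ± 0.09). In IgG2b/IgG2c cells Edem2 (0.50 ± 0.12), Creld2 (0.46 ± 0.15), Txndc11 and Srprb (0.34 ± 0.10) rose, and Syvn1 (-0.36 ± 0.11) and Edem3 (-0.32 ± 0.09) fell beside the 2 disulfide genes. In IgG3 cells Edem2 (0.89 ± 0.18) and Dnajb9 (0.61 ± 0.15) joined Txndc11. The IgG3 calls rest on 2 sums: Dnajb9 was lost without each of sets 1, 2 and 3, and Edem2 and Txndc11 were kept without set 2 alone. In IgG2b/IgG2c cells the fall of Syvn1 was kept without set 1 alone and that of Edem3 without set 2 alone. All rises in IgG1 and IgG2b/IgG2c cells were lost when 1 set was left out, without each set in turn except for Hsp90b1, which was kept without set 1. The sensors did not pass in any isotype.

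**Figure D3:**
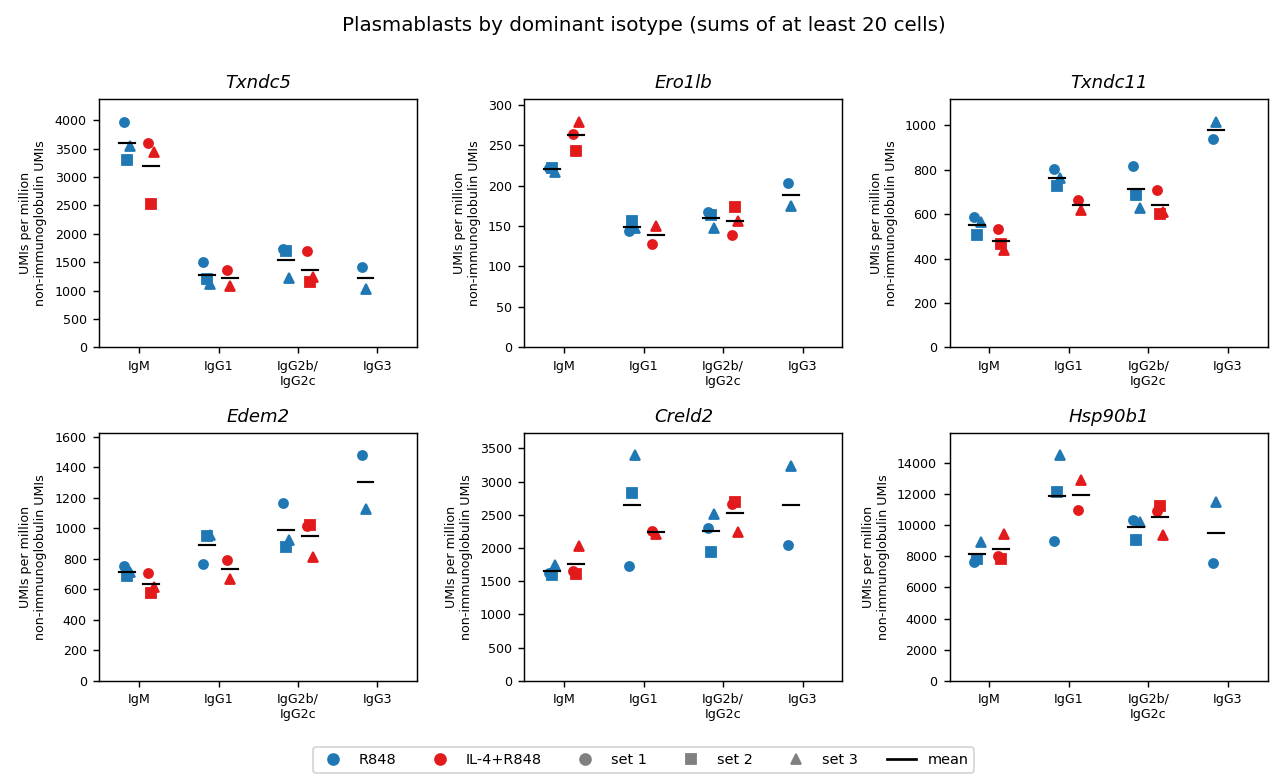
Levels of 6 members in plasmablasts by dominant isotype, in UMIs per 1000000 non-immunoglobulin UMIs from 0. Points are sums of at least 20 cells (circle, square and triangle for sets 1, 2 and 3; blue for R848, red for IL-4+R848) and bars are means. All IgG points of Txndc5 (at most 1728) lie below all IgM points (at least 2530), and those of Ero1lb likewise for IgG1 and IgG2b/IgG2c, while Txndc11 and Edem2 lean the other way with wider spread.

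IgM and IgG plasmablasts also differed in other ways. IgM cells had medians of 14477.5 to 18828.5 UMIs per cell, against 19752 to 28129 in IgG2b/IgG2c cells. Of the 7 plasma cell markers 2 fell in IgG1 cells and 3 fell and 1 rose in IgG2b/IgG2c cells. Prdm1 fell in both (-1.28 and -1.07), as did Tnfrsf17 (-2.00 and -1.60), and in IgG2b/IgG2c cells Slamf7 fell (-0.21) and Sdc1 rose (0.35). In IgG3 cells 1 of the 7 passed, Xbp1, which rose (0.74, edgeR adjusted p = 0.0260). Xbp1 did not pass in IgG1 or IgG2b/IgG2c cells (0.14 and 0.25, edgeR adjusted p = 0.473 and 0.132). The part of depth or of plasma cell stage in the isotype differences was not tested.

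The IL-4+R848 and R848 sums of each class were compared, since the series asks how IL-4 alters B cell development under TLR7 stimulation. In plasmablasts no member passed (0 of 40; 3 of 10268 genes, 0.0292%), and 0 of 40 had an unadjusted p under 0.05 in edgeR's test. Changes ran from -0.15 (Txndc11) to 0.16 (Hspa5) with standard errors of 0.07 to 0.19, and changes of several times these errors could have been missed. Hspa5 was at 3487, 3281 and 4191 in R848 sets 1 to 3 and at 4088, 3860 and 4068 with IL-4+R848. Hsp90b1 was at 8662, 8854 and 10656 and at 9818, 9391 and 10066. Derl3 was at 759, 803 and 927 and at 805, 849 and 880. The treatments overlapped in each of these. DESeq2, the set as a block, and IgM or IgG2b/IgG2c plasmablasts alone also gave 0 members. Edem1 and Mzb1, under the gate without members, stood at -0.03 and -0.04. None of the 4 other pathway lists had a called gene. The share of plasmablasts itself was 8.06%, 7.82% and 10.6% of R848 cells and 7.79%, 3.28% and 4.25% of IL-4+R848 cells, so these values are per plasmablast and not per spleen.

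In germinal center-like cells 1 of 42 members passed (0.481% of 9779 genes rose and 0.133% fell, 60 or 0.614% either way). Pdia4 was at 46.8, 57.7 and 64.2 in R848 sets and 95.5, 112 and 99.4 in IL-4+R848 sets, without overlap, a rise of 0.92 ± 0.13 (edgeR adjusted p = 0.0181). The call was lost without set 1 (0.86, adjusted p = 0.0765) and without set 2 (0.86, adjusted p = 0.164). Xbp1 rose in the same cells by 0.58 ± 0.10 (edgeR adjusted p = 0.0358). Even with IL-4 the Pdia4 level stayed under the lowest naive-like sum of 183. In memory-like cells 0 of 41 members passed (0.751% of 6920 genes rose and 0.361% fell, 77 or 1.11% either way), 2 of them had an unadjusted p under 0.05 in edgeR's test, and DESeq2 called 0.

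**Figure D4:**
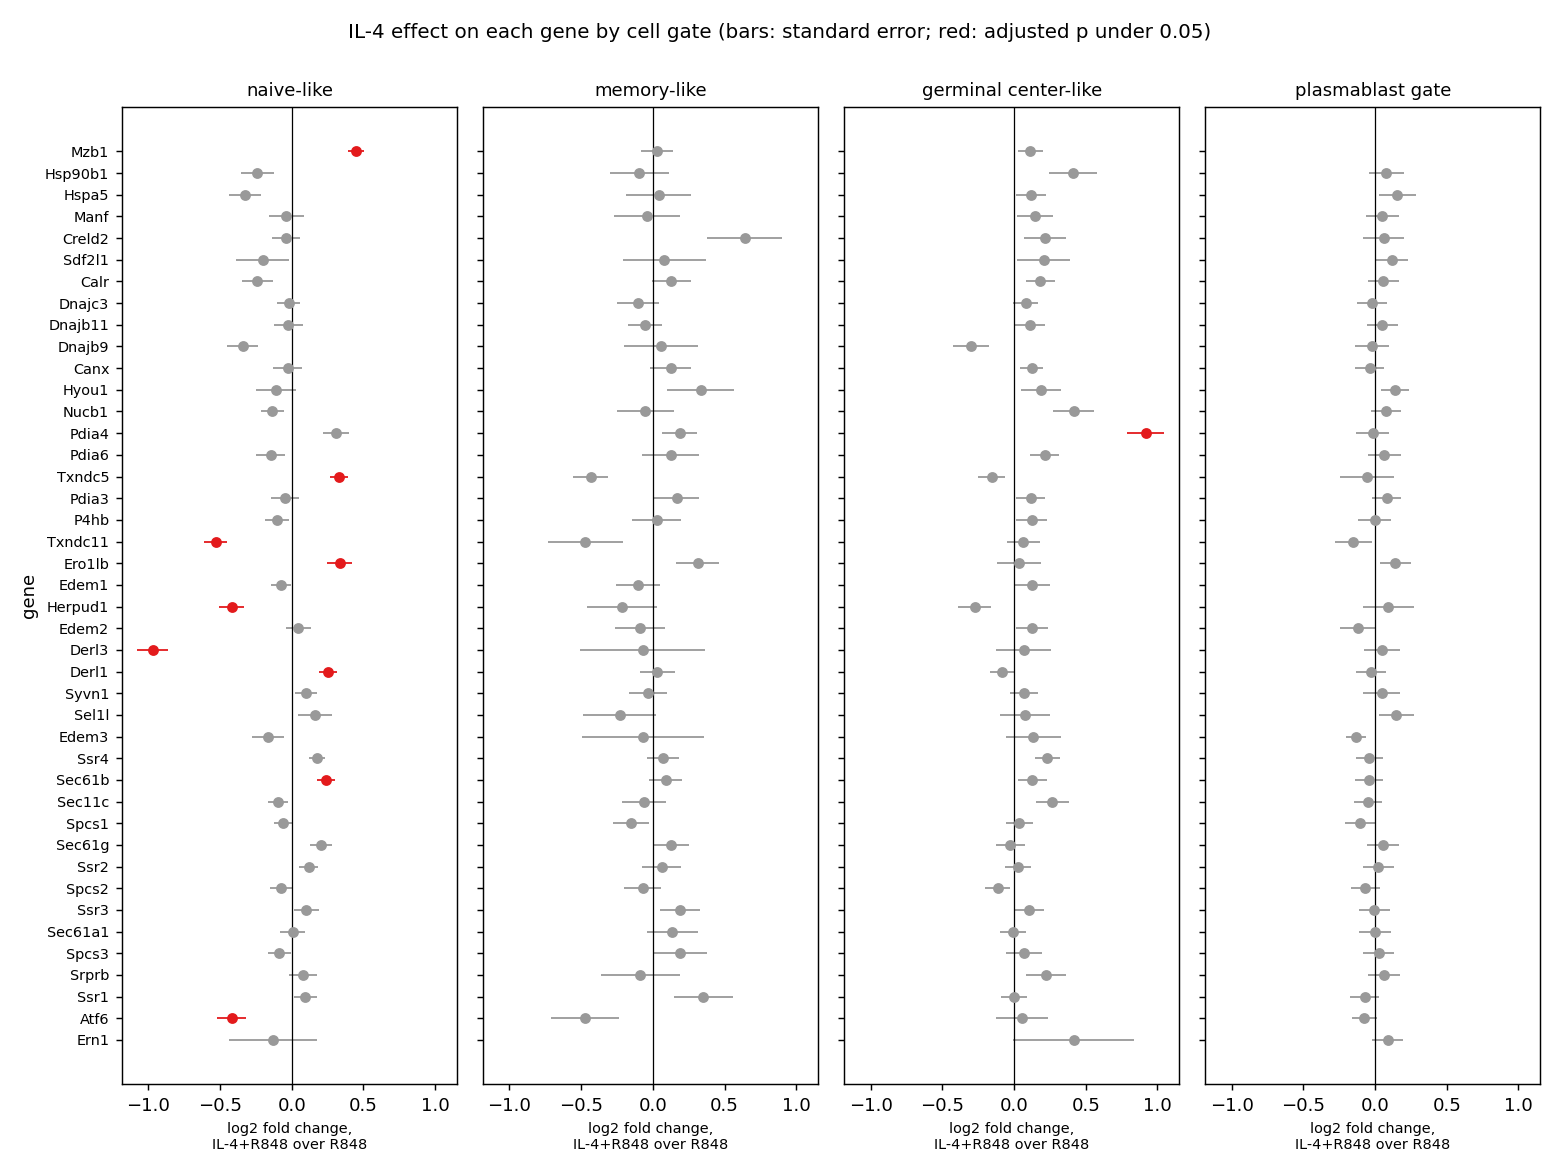
Log2 fold change of IL-4+R848 over R848 for each member in 4 classes, with standard errors. Red marks an adjusted p under 0.05 in edgeR's test; Edem1 and Mzb1 are left out in plasmablasts, where they made the gate, and Ern1 in memory-like cells, where it did not pass the filter. No point is red in plasmablasts or memory-like cells, Pdia4 alone is red in germinal center-like cells, and 9 members are red in naive-like cells.

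Naive-like cells responded in 9 of 42 members, 5 up and 4 down (5.81% and 4.1% of all 10427 genes, 9.92% either way). With the set as a block 14 members passed, 8 up and 6 down. The matching shares of all genes are not given for that fit, so this count shows only how the calls shift. Fold changes here rest on TMM scaling and lie 0.15 (log2, median over the members) above the ratios of the mean levels, so small rises are smaller in the levels. Derl3 fell most, from 19.5, 20.4 and 19.6 in R848 sets to 9.83, 9.15 and 8.26 in IL-4+R848 sets (-0.97 ± 0.11, edgeR adjusted p = 0.000164), on 147 to 197 and 52 to 90 UMIs per sum. Txndc11 went from 51.6, 50.8 and 43.7 to 30.1, 31.3 and 29.7 (-0.53 ± 0.08, adjusted p = 0.00118). Herpud1 went from 118, 106 and 103 to 81.3, 73.8 and 65.0 (-0.42 ± 0.09, adjusted p = 0.00879). In these 3 genes every IL-4+R848 set lay below every R848 set. Of the 8 degradation genes 2 fell (Derl3 and Herpud1), 1 rose and 5 did not pass, and of the 7 disulfide genes 1 fell (Txndc11), 2 rose and 4 did not pass. So did Atf6, at 51.0, 60.3 and 63.7 against 39.1, 35.8 and 43.7 (-0.42 ± 0.10, adjusted p = 0.0234), while Ern1 did not pass (-0.13 ± 0.31, adjusted p = 0.865).

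Mzb1 led the rises. It went from 500, 465 and 503 to 596, 620 and 586 (0.45 ± 0.06, edgeR adjusted p = 0.000332), with no overlap. Txndc5 went from 121, 119 and 116 to 140, 134 and 129 (0.33 ± 0.06, adjusted p = 0.0047), and Derl1 (0.25 ± 0.06) and Sec61b (0.24 ± 0.06) rose as well. Ero1lb rose by 0.33 ± 0.09 (adjusted p = 0.0352), but its levels of 95.2, 104 and 107 against 102, 128 and 118 overlapped. The Derl1 call was lost without each of sets 1, 2 and 3 (0.28, 0.26 and 0.22; edgeR adjusted p = 0.101, 0.172 and 0.133), by DESeq2 (adjusted p = 0.0712) and with at least 4 Ighd UMIs (edgeR adjusted p = 0.195), and the ratio of its mean levels was 0.10 on the log2 scale. Mzb1, Derl3 and Txndc11 were called in all 10 alternatives, and the count was 6, 3 and 7 without sets 1, 2 and 3.

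**Figure D5:**
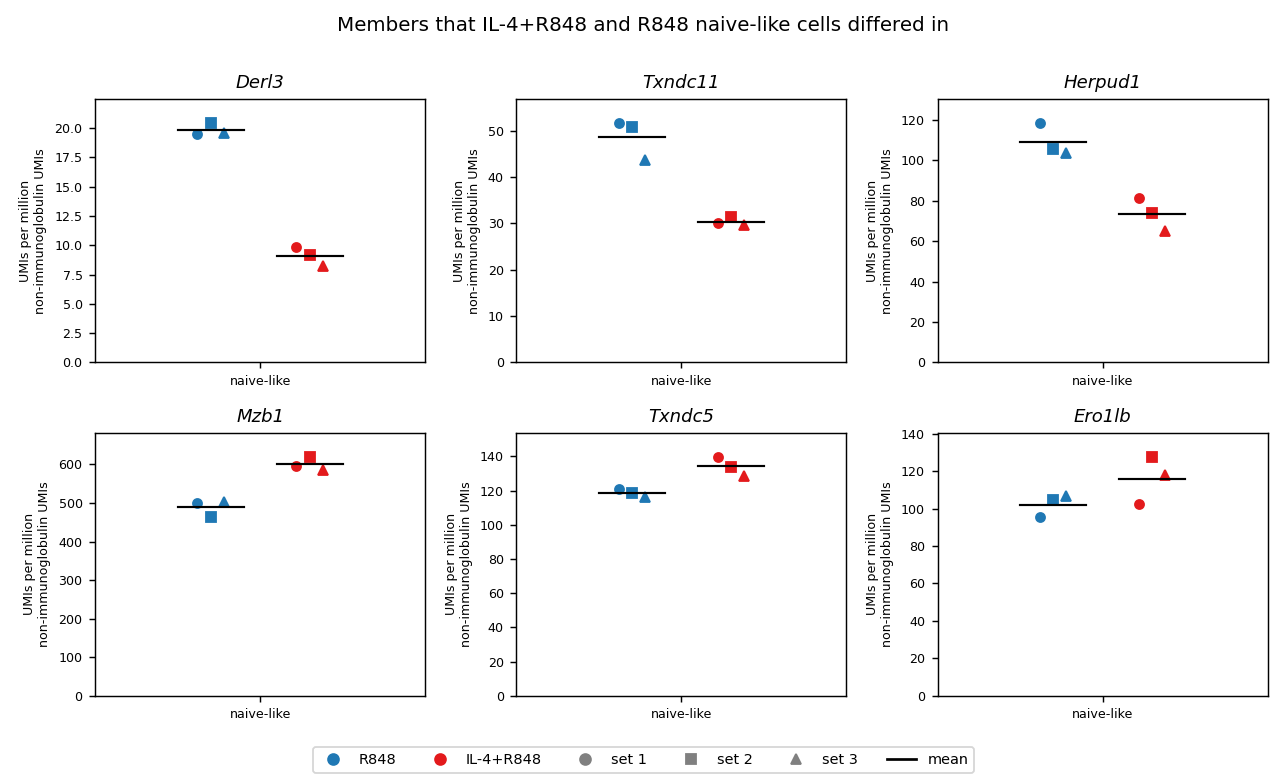
Levels of 6 members in naive-like cells of R848 (blue) and IL-4+R848 (red) sets, in UMIs per 1000000 non-immunoglobulin UMIs from 0. Points are single sums (circle, square and triangle for sets 1, 2 and 3) and bars are means of 3. Derl3, Txndc11 and Herpud1 are lower in every IL-4+R848 set than in any R848 set, Mzb1 and Txndc5 are higher, and Ero1lb overlaps.

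Markers of plasma cells moved in the naive-like cells too. Of the 7 markers 5 were tested, 2 rose and 2 fell: Sdc1 went from 10.4, 9.12 and 13.2 to 1.44, 1.63 and 2.22 (-2.49, edgeR adjusted p = 4.41e-05) and Irf4 fell by 0.88, while Xbp1 went from 50.1, 55.5 and 71.3 to 86.2, 97.1 and 84.0 (0.75, adjusted p = 0.0019) and Slamf7 rose by 0.72. Jchain was at 34.5, 91.3 and 78.4 and at 25.5, 69.3 and 11.4 (-0.74, edgeR adjusted p = 0.418). These levels may be background, since a Jchain UMI was present in 19.8% of naive-like and 19.3% of NK-like cells. Among the members, Creld2 did not pass (-0.04 ± 0.10, edgeR adjusted p = 0.869). Naive-like cells were also deeper with IL-4+R848 in every set, with medians of 6257, 7584 and 5572 UMIs against 4670, 5656.5 and 4440. The part of other cells or of depth in the naive-like changes was not tested. Among the other pathway genes 2 of 25 folding and glycan genes rose (Fkbp11 and Ppib) and 1 fell, 1 of 22 targeting and degradation genes fell, 0 of 17 transport genes passed, and of 11 regulators Xbp1 and Ell2 rose and Ppp1r15a fell.

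The difference of the IL-4 effect between plasmablasts and naive-like cells was tested as an interaction. Of 40 members 1 passed, upward (0.136% of 11049 genes did so, 0.38% passed downward and 57 or 0.516% either way): the IL-4 effect on Derl3 was 1.01 ± 0.14 higher in plasmablasts, at 0.05, than in naive-like cells, at -0.97 (edgeR adjusted p = 0.0072). The call was lost without each of sets 1, 2 and 3 (1.05, 0.97 and 1.03; adjusted p = 0.0934, 0.320 and 0.0513). For the other members the difference did not pass, with Mzb1 at -0.50 under the gate without members (adjusted p = 0.127).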

How the data were processed

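Spleen B cells of R848 and IL-4+R848 treated mice were measured as 3 hashtagged 5′ single-cell libraries. The deposited values are raw UMI counts, not normalized, of genes and 14 antibody tags in each barcode. Per the file headers the authors used Cell Ranger 6.0.1. The genome build mm10 and Seurat 4.1.3 are named in the submitters' processing notes.

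Barcodes with fewer than 500 genes or with 10% or more mitochondrial UMIs were dropped. Treatment came from the hashtag names; 1 tag had to reach 64 UMIs and 4 times the other plus 1. Barcodes with both tags were dropped and no other doublet caller was run. Classes were RNA gates (germinal center, memory and naive gates as in the report; NK-like cells held at least 3 of 7 NK genes and at most 1 UMI of Cd79a plus Cd79b). Isotype was the heavy chain gene at 50% or more of heavy chain UMIs. UMIs were summed per set, treatment and class, and sums under 20 cells left out.

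The quasi-likelihood F test of edgeR 4.0.16 was run on the sums after filterByExpr and TMM scaling (R 4.3.3, limma 3.58.1), and p-values were adjusted by Benjamini-Hochberg over all genes. Classes and isotypes had the set and treatment as a block; treatments had none, and the block was an alternative. The script was tested on simulated data. Further alternatives were DESeq2 1.42.0 (test and size factors), no filter, other gates and depths, no immunoglobulin genes (392) and each set left out. Python 3.11.15 with numpy 2.4.6, pandas 2.3.3, scipy 1.17.1 and matplotlib 3.10.9 made levels and figures.

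The members and lists were chosen with earlier results of these data known. The text names, per role, up to 3 called members of largest change, the most abundant one and both sensors, and accounts for all by counts; other members named were chosen after their values were seen. The set pairs the treatments, which share its library. Deviations of the 2 sums of a set correlated at 0.214 to 0.310 in naive-like cells (other pairs -0.210 to -0.0995), 0.0110 to 0.363 in germinal center-like and 0.0392 to 0.0734 in memory-like cells, and -0.107 to 0.00598 in plasmablasts.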

Additional observations from a re-analysis of the deposited data

Results flagged for a closer look

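The IL-4 effect on Derl3 differed between cell classes by an interaction test: it was 1.01 ± 0.14 (log2) higher in plasmablasts than in naive-like cells (edgeR adjusted p = 0.0072). Derl3 fell in naive-like cells in all 3 sets, from 19.5, 20.4 and 19.6 to 9.83, 9.15 and 8.26 UMIs per 1000000 non-immunoglobulin UMIs, and stood at 759, 803 and 927 and at 805, 849 and 880 in plasmablasts. The call was kept in 8 of 13 alternatives.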

How the results depend on the processing

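Plasmablasts had 40 of 40 members called against naive-like cells in all 13 alternatives. In the main fit of this comparison 80.3% of all genes were called. The direction of every called member of every comparison was kept in every alternative except for Pdia4 in memory-like cells, which was at -0.24 (edgeR adjusted p = 0.153) with switched cells only. Over single members, 1383 recomputed calls were kept, 174 missed the threshold and 1 reversed. The count of members called in memory-like cells (28) was 14 with switched cells only and 14 to 19 when a set was left out. For IgG1 against IgM (7) it was 14 by DESeq2, 4 without a filter, 17 without immunoglobulin genes, 1 in non-dividing cells, 11 with the isotype at 80% or more and 2 to 3 when a set was left out. For IgG2b/IgG2c (8) it was 14 by DESeq2, 4 without a filter, 15 without immunoglobulin genes, 4 with the stricter gate, 5 in non-dividing cells and 2 to 3 when a set was left out. For IgG3 (4) it was 10, 2, 11 and 2 under the first 4 of these, 6 with no block (replicate block dropped) and 0 to 3 when a set was left out; the non-dividing fit was not run because too few cells remained. For IL-4 in germinal center-like cells (1) it was 0 to 1 when a set was left out. For IL-4 in naive-like cells (9) it was 15 without a filter, 14 with the replicate block and 3 to 7 when a set was left out. For the interaction (1) it was 0 when any set was left out, in non-dividing plasmablasts and with at least 4 Ighd UMIs. The block changed no other count of members by over 1.5 times. Over all genes, the count called for IL-4 was 3 in plasmablasts (0 to 37 over the alternatives), 60 in germinal center-like cells (16 to 428), 77 in memory-like cells (9 to 305), 1034 in naive-like cells (388 to 1480) and 57 for the interaction (11 to 174). The cause of these shifts was not tested. The filter left Ern1 out in memory-like cells, and IgA sums of under 20 cells allow no test.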
